A study of Mus musculus with 15 samples.

Results

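The transcription factors described here decide which effector or helper program an activated CD4+ T-cell follows. The set holds 10 genes, taken by name: Irf4, Irf8, Prdm1, Bhlhe40, Tbx21, Gata3, Foxp3, Bcl6, Rora and Ikzf2. Every probe set that the platform annotation assigns to one of them alone was read, which gave 23 of the 45101 probe sets on the CD4+ T-cell arrays and 15 of the 22690 on the thymocyte arrays. The 10 are among 18194 genes with a probe set of their own on the CD4+ T-cell arrays. The rule uses names alone and no measured value, although the names were picked with earlier results of these data known.

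All mice were on the 129/SJ background and 6 to 20 weeks old by the labels, while the methods put the thymocyte mice at 6 weeks. N-ras KO and H-ras KO mice were homozygous offspring of heterozygous parents and lacked the gene in every tissue, and WT mice were littermates. CD4+ T-cells were sorted from spleens of N-ras KO mice and WT littermates and kept overnight in T-cell growth medium. The medium held no antibodies (unstimulated) or 1 µg/ml of anti-CD3 and anti-CD28, which engage the T-cell receptor (TCR) and a costimulatory receptor. This gave 4 groups of 3 arrays. Thymocytes were taken directly from mice of WT, H-ras KO or N-ras KO genotype, with 1 array for each genotype.

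TCR signaling reaches the nucleus through calcium, Ras and NF-kappaB pathways, and the factors of the AP-1, NFAT and NF-kappaB families that they activate switch on a further layer of regulators. Irf4 belongs to that layer and scales with the strength of the TCR signal. The lineage factors then divide the labour: T-bet (encoded by Tbx21) directs type 1 helper cells, GATA-3 type 2 helper cells, Bcl-6 follicular helper cells, ROR-alpha type 17 helper cells, and Foxp3 with Helios (encoded by Ikzf2) regulatory T-cells. Blimp-1 (encoded by Prdm1), the repressor of Bcl-6, and Bhlhe40, a regulator of cytokine production, act in effector cells.

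The promoters of the 3 members with the largest WT differences below show which core elements lie next to their start sites. The windows hold the 250 bases before the RefSeq gene start, 5′ to 3′ on the gene's strand (GRCm38.p6): chr13:30748983-30749232 on the plus strand for Irf4, chr8:120736108-120736357 on the plus strand for the first of 2 starts of Irf8, and chrX:7579426-7579675 on the plus strand for the first of 2 starts of Foxp3. Capitals mark every match to a searched motif.
Irf4: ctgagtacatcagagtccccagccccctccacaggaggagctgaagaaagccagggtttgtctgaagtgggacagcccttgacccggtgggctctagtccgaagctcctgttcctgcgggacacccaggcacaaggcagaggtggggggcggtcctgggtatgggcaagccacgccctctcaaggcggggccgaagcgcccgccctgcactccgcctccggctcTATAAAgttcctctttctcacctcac
Irf8: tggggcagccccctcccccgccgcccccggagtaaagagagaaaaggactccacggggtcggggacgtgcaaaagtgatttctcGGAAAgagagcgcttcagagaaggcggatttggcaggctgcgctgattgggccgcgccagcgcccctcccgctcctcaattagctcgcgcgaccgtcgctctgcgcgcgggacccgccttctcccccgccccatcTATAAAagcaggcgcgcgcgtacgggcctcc
Foxp3: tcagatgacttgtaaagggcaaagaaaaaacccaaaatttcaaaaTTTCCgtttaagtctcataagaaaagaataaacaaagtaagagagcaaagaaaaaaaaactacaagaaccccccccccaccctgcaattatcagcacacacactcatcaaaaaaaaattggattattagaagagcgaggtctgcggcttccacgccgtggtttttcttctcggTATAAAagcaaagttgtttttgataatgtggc
Of these windows, each has a TATA box (TATAAA) in capitals, ending 20, 25 and 26 bases before the start of Irf4, Irf8 and Foxp3. The windows of the second starts of Irf8 and Foxp3, not shown, held no TATA box. A TATA box was present in 12.4% of 32851 RefSeq windows of the same length. The core NFAT sequence GGAAA, which is TTTCC on the other strand, matched once in each of the Irf8 and Foxp3 windows shown, 161 and 200 bases before the start. It did not match in the Irf4 window. It is short, and 55.6% of all windows held it. Among the 8 members with a RefSeq promoter entry, which have 11 windows, an AP-1 element (TGANTCA, in 6.75% of all windows) matched only in Prdm1 and an E-box (CACGTG, 6.02%) only in Bcl6. Neither the interferon regulatory element (GAAA and GAAA with any 2 bases between them, in 2.98% of all windows) nor the kappaB element (GGGA and TTTCC with any base between them, in 0.356%), which contains an NFAT core on the other strand, matched in any member window. All 6 motifs were searched on both strands.

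The deposited values are log2 expression values that the authors centred. In the CD4+ T-cells, the median of the 3 unstimulated arrays of each genotype was 0 on every probe set, so each value is relative to unstimulated cells that share its label, and holds no brightness. Unstimulated WT and unstimulated N-ras KO cells could therefore not be compared, levels could not be compared between genes, and the presence of CD4 and CD3 transcripts could not be checked. Nras itself went against the label on the arrays labelled N-ras KO 3, with 1.70, 1.21 and 2.04 on its 3 probe sets in unstimulated cells and 1.21, 0.80 and 2.09 in stimulated cells. On those labelled WT 1 it held -1.61, -1.23 and -2.68 in unstimulated cells and -0.14, -1.23 and -3.04 in stimulated cells, where 1422687_at stood close to the -0.19 of the array labelled WT 3. The arrays numbered 3 also spread most, with 12.3% to 22.3% of their probe sets more than 1 log2 from 0 against 4.07% to 10.3% on the others. Values without these arrays are given beside the member results that they moved most. The response averaged over both genotypes does not depend on which genotype an array carries on its label, apart from the centring.

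**Figure D1:**
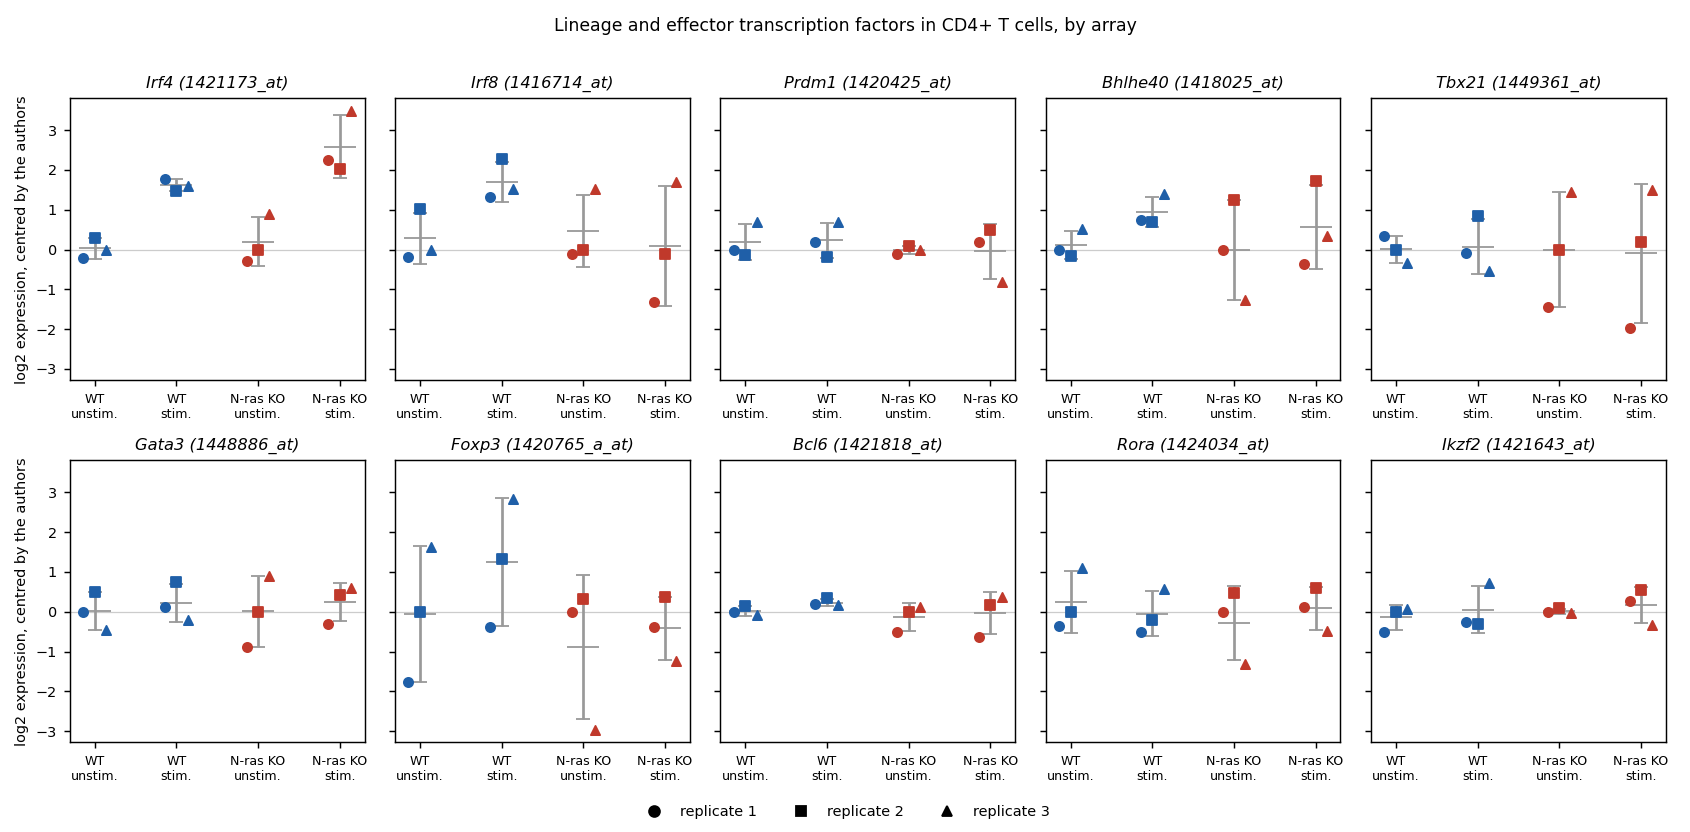
Centred log2 expression (y axis) of 1 probe set for each of the 10 members on the 12 CD4+ T-cell arrays, with WT in blue and N-ras KO in red; markers give the replicate number, and grey bars the mean ± SD of 3 arrays. Irf4 is the member whose 6 stimulated arrays, from 1.48 to 3.48, all lie above its 6 unstimulated arrays, while Foxp3 spreads from -2.96 to 1.63 before any stimulus.

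Irf4, the interferon regulatory factor induced by antigen receptors, was the member with the largest difference after TCR stimulation, and it was higher in both genotypes. On probe set 1421173_at the unstimulated arrays held -0.21, 0.30 and 0 in WT and -0.29, 0 and 0.89 in N-ras KO, and the stimulated arrays held 1.78, 1.48 and 1.60 in WT and 2.25, 2.03 and 3.48 in N-ras KO. All 6 stimulated arrays lay above all 6 unstimulated arrays, which 0.0687% of all probe sets did. The difference averaged over both genotypes was 1.99 log2 (SE 0.28, 95% confidence interval 1.36 to 2.62), or 3.97-fold. It ranked 3 by p among 45101 probe sets in limma, yet its adjusted p was 0.458, so it did not pass the threshold of 0.05. It was 1.59 log2 in WT cells and 2.39 log2 in N-ras KO cells (SE 0.40 each, n = 3 arrays per group).

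The second Irf4 probe set, 1421174_at, showed the same direction with a wider spread. The same-numbered pairs of stimulated and unstimulated arrays differed by 0.62, 1.28 and 1.70 log2 in WT and by 2.03, 1.28 and 3.40 log2 in N-ras KO. The average over both genotypes was 1.72 log2 (SE 0.41, adjusted p = 0.999955 in limma). In WT its groups overlapped, because the unstimulated array of replicate 1 stood at 1.09, above the stimulated array of replicate 2 at 0.76. Without the arrays labelled WT 1 and N-ras KO 3, the averages of 1421173_at and 1421174_at were 1.84 and 1.57 log2 (SE 0.18 and 0.28).

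Irf4 was further from its unstimulated baseline in N-ras KO than in WT, but the difference did not pass the adjusted threshold. On 1421173_at the pairs differed by 2.00, 1.18 and 1.60 log2 in WT and by 2.54, 2.03 and 2.59 log2 in N-ras KO. On 1421174_at the pairs of the genotypes overlapped. The difference of the responses, WT minus N-ras KO, was -0.80 log2 on 1421173_at (SE 0.57, 95% confidence interval -2.06 to 0.47, adjusted p = 0.999921) and -1.04 log2 on 1421174_at (SE 0.81). Without the arrays labelled WT 1 and N-ras KO 3 these values were -0.90 and -0.17 log2, so the size on the second probe set rests on those arrays. Leaving out 1 array at a time, the first ranged from -1.14 to -0.35 log2, the smallest size without the stimulated array labelled N-ras KO 3. With arrays of one genotype and number as a block, the first had an unadjusted p of 0.0339 in limma and an adjusted p of 0.961.

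**Figure D2:**
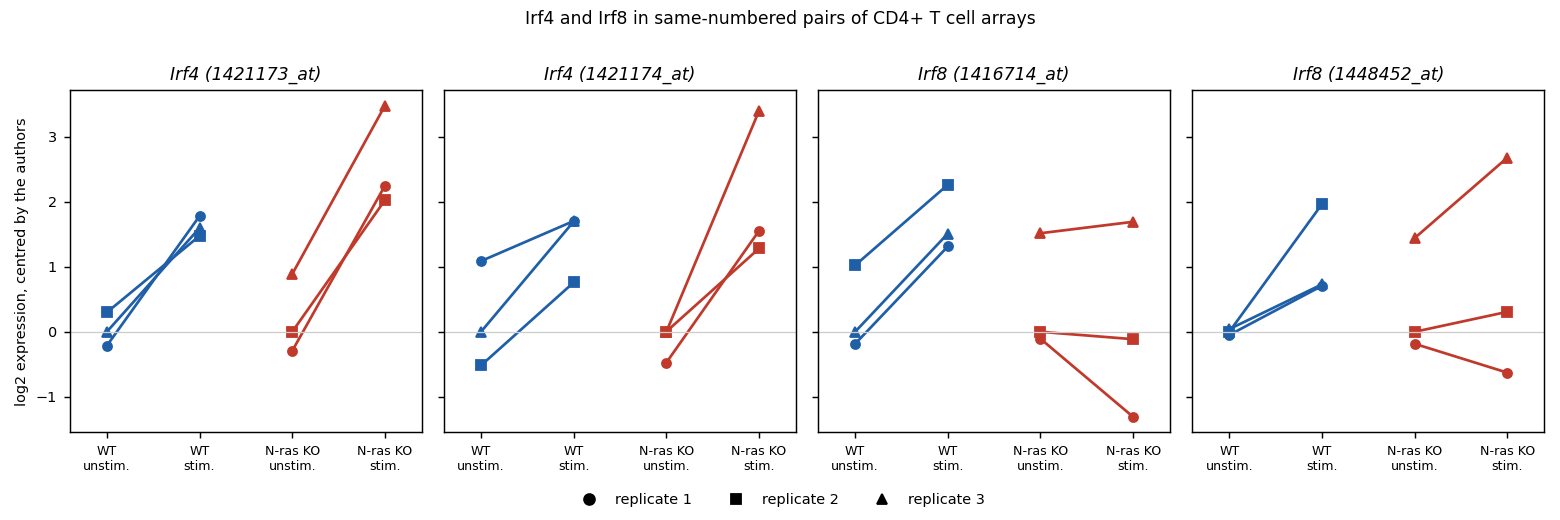
Centred log2 expression (y axis) of Irf4 and Irf8 on both probe sets of each gene, with a line joining the unstimulated and the stimulated array of the same number and genotype (WT in blue, N-ras KO in red). All lines of Irf4 go up, while on Irf8 probe set 1416714_at the 3 WT lines go up by 1.24 to 1.51 log2 and the N-ras KO lines run from -1.20 to 0.18 log2.

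Irf8, the interferon regulatory factor of myeloid and B-lineage cells that activated T-cells also express, was higher after stimulation in all 3 WT pairs and had no shared direction in N-ras KO. On 1416714_at the WT arrays went from -0.19, 1.02 and 0 to 1.31, 2.26 and 1.51, with no overlap between the groups. The N-ras KO arrays held -0.11, 0 and 1.52 before and -1.31, -0.11 and 1.69 after stimulation, and overlapped. The response was 1.42 log2 in WT cells and -0.38 log2 in N-ras KO cells (SE 0.72 each), and the difference of the responses was 1.80 log2 (SE 1.01, 95% confidence interval -0.45 to 4.04, adjusted p = 0.999921 in limma). With the block within genotype its standard error was 0.38, the unadjusted p 0.00327 and the adjusted p 0.961, so it did not pass either. Without the arrays labelled WT 1 and N-ras KO 3 the difference was 2.04 log2 (SE 0.75).

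The other Irf8 probe set, 1448452_at, separated the genotypes less. Its pairs differed by 0.76, 1.97 and 0.69 log2 in WT and by -0.44, 0.31 and 1.24 log2 in N-ras KO. The difference of the responses was 0.77 log2 (SE 1.07), and 1.40 log2 (SE 0.69) without the arrays labelled WT 1 and N-ras KO 3. Without those arrays the N-ras KO response on this probe set turned from 0.37 to -0.07 log2.

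B-cell markers were high on the arrays labelled N-ras KO 3, where Irf8 was highest in N-ras KO. The mean over 12 measured B-cell markers was 1.00 and 1.64 on the unstimulated and stimulated arrays labelled N-ras KO 3. On replicates 1 and 2 of N-ras KO it was -0.21 and -0.17 unstimulated and 0.37 and 0.40 stimulated. In WT it was -0.71, 0.11 and 0.45 unstimulated and -0.22, 0.55 and 0.97 stimulated, for replicates 1, 2 and 3. The mean was higher after stimulation in every pair. Irf8 was lower in replicates 1 and 2 of N-ras KO on 1416714_at and in replicate 1 of N-ras KO alone on 1448452_at. Among stimulated WT arrays, Irf8 1416714_at was highest on replicate 2 and the B-cell mean on replicate 3. On the arrays labelled N-ras KO 3, Ms4a1, which encodes CD20, stood at 2.92 and 3.16 and Spib at 3.58 and 4.16. The mean over 12 macrophage and dendritic cell markers was -0.01 and -0.06 on the same arrays. The part of B-cells in the Irf8 values was not tested. In these bulk samples, fewer cells of a type and less RNA per cell cannot be told apart, and markers that are absent cannot be recognised in centred values.

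Among the effector regulators, Bhlhe40 was higher after stimulation in all WT pairs, and Prdm1 showed no shared direction. Bhlhe40 went from 0, -0.16 and 0.50 to 0.75, 0.70 and 1.39 in WT, with no overlap. In N-ras KO it went from 0, 1.24 and -1.27 to -0.36, 1.73 and 0.33, and replicate 1 was lower while replicates 2 and 3 were higher. Its response was 0.83 log2 in WT cells and 0.58 log2 in N-ras KO cells (SE 0.64 each, adjusted p = 0.999987 and 0.99999). The N-ras KO value was 0.06 log2 without the arrays labelled WT 1 and N-ras KO 3.

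Prdm1 had stimulated values of 0.18, -0.18 and 0.69 in WT and of 0.19, 0.48 and -0.82 in N-ras KO. Its average response had a 95% confidence interval of -0.58 to 0.57 log2.

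The type 1 and type 2 lineage factors stood close to their unstimulated values. Tbx21 pairs differed by -0.44, 0.83 and -0.19 log2 in WT and by -0.51, 0.20 and 0.06 log2 in N-ras KO, and its average response was -0.01 log2 (SE 0.62). Its arrays of one genotype and condition differed by more than the conditions did: the unstimulated N-ras KO arrays held -1.45, 0 and 1.44, and the stimulated ones -1.96, 0.20 and 1.5. Gata3 pairs differed by 0.13, 0.26 and 0.26 log2 in WT and by 0.57, 0.43 and -0.30 log2 in N-ras KO, with an average of 0.22 log2 (SE 0.33). The responses of Gata3 in WT and N-ras KO were 0.21 and 0.23 log2, with a 95% confidence interval of -1.47 to 1.44 log2 for their difference. The average was 0.38 log2 (SE 0.38) and the N-ras KO response 0.50 log2 (SE 0.54) without the arrays labelled WT 1 and N-ras KO 3.

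Bcl6, the follicular helper factor, was slightly higher on both probe sets in WT. On 1421818_at the WT arrays went from 0, 0.14 and -0.09 to 0.19, 0.33 and 0.16, and on 1450381_a_at from 0.34, -0.02 and 0 to 0.80, 0.49 and 0.79, without overlap on either. The WT responses were 0.21 and 0.59 log2 (SE 0.28 and 0.43), and those in N-ras KO 0.09 and 0 log2. On 1450381_a_at the N-ras KO pairs went in different directions, with -0.94, 0.90 and 0.04 log2.

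Rora was read by 9 probe sets, which did not move together. Probe set 1436325_at was lower in all 6 pairs, which 2.13% of all probe sets were, with pair differences of -0.48 to -0.13 log2 and an average of -0.35 log2 (SE 0.15, adjusted p = 0.999955 in limma). On 1424035_at the WT pairs were higher by 0.45, 0.97 and 0.76 log2 and the N-ras KO pairs lower, with -0.13, -0.88 and -0.17 log2. On 1424034_at the directions were the other way round, with -0.14, -0.21 and -0.53 log2 in WT and 0.13, 0.12 and 0.84 log2 for N-ras KO. Probe sets of one gene can read different transcripts, and the arrays give no value for the gene as a whole. The unstimulated arrays were far apart on probe set 1420583_a_at, which stood at 3.24 on the unstimulated array labelled WT 3 and at -2.66 on that labelled N-ras KO 3.

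**Figure D3:**
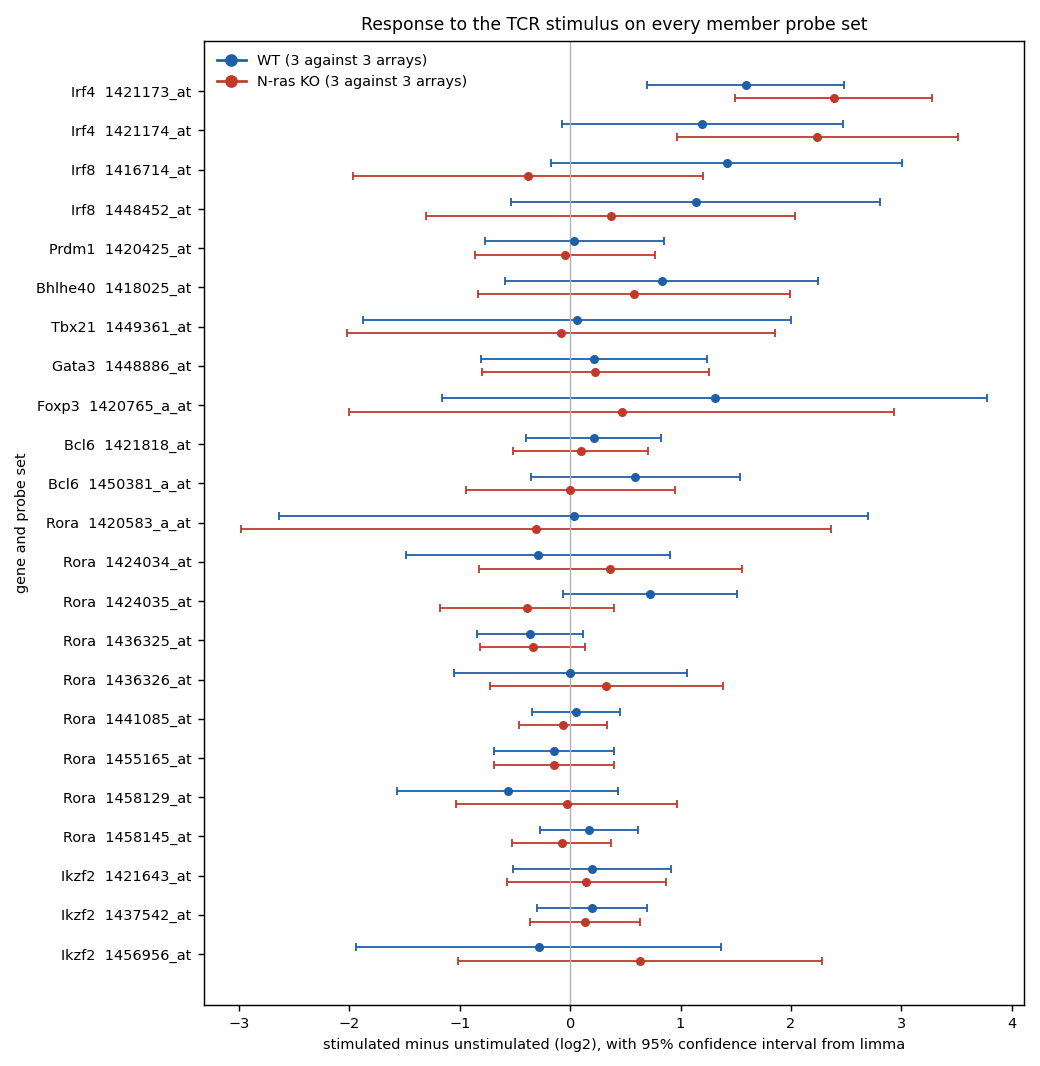
Response to the TCR stimulus (stimulated minus unstimulated, log2, x axis) on each of the 23 member probe sets, for WT in blue and N-ras KO in red, with points for the limma estimates and bars for their 95% confidence intervals. The intervals of Irf4 1421173_at exclude 0 in both genotypes, those of 1421174_at in N-ras KO, and the intervals of the other members include 0.

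Foxp3, the lineage factor of regulatory T-cells, was higher after stimulation by nearly the same amount in all WT pairs, although its starting values were far apart. The WT arrays went from -1.78, 0 and 1.63 to -0.38, 1.32 and 2.84, which is a difference of 1.40, 1.32 and 1.21 log2 for replicates 1, 2 and 3. The N-ras KO arrays went from 0, 0.31 and -2.96 to -0.38, 0.36 and -1.23, a difference of -0.38, 0.05 and 1.73 log2. The groups overlapped in both genotypes. The WT response of 1.31 log2 had an SE of 1.11 without pairing (adjusted p = 0.999987 in limma) and of 0.39 with the block within genotype (unadjusted p = 0.0146, adjusted p = 0.999921).

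The spread of Foxp3 among the unstimulated arrays, an SD of 1.76 log2 within genotypes, was larger than that of 99.0% of all probe sets, whose median was 0.413 log2. The N-ras KO response was 0.47 log2 and turned to -0.16 log2 without the arrays labelled WT 1 and N-ras KO 3. Other genes of regulatory T-cells differed in whether they stood apart on the same arrays. Tnfrsf18, which encodes GITR, was at 1.71 on the unstimulated array labelled WT 3 and at -1.31 on that labelled N-ras KO 3, where Foxp3 stood at 1.63 and -2.96. Ikzf2 did not follow Foxp3 there, with 0.07 and -0.04 on 1421643_at, 0 and 0.18 on 1437542_at, and 0 and 0.84 on 1456956_at. The mean over 15 measured regulatory T-cell genes on those arrays was 0.49 and -0.44. It was not particular to that list, since 13 T-cell markers averaged 0.52 and -0.48 and 12 type 1 helper genes 0.52 and -0.54 on the same arrays. Whether the arrays hold different shares of regulatory T-cells was not tested.

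Ikzf2, whose product Helios is found in many regulatory T-cells, had no common direction. On 1421643_at the responses were 0.20 log2 in WT cells and 0.15 log2 in N-ras KO cells (SE 0.32 each), and on 1437542_at 0.20 and 0.13 log2 (SE 0.22 each). On 1456956_at the WT pairs were lower, with -0.23, -0.40 and -0.23 log2, and the N-ras KO pairs higher, with 1.05, 0.02 and 0.82 log2.

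Across the set, no member passed the adjusted threshold in limma in any comparison, and neither did any other probe set: 0% of the 45101 were called. At an unadjusted p of 0.05, 923 probe sets passed for the response in both genotypes, 520 in WT, 1162 in N-ras KO, 586 for the difference of the responses and 3427 for stimulated WT minus stimulated N-ras KO. At the thresholds that the study used, an unadjusted p of 0.05 and 1.5-fold, both Irf4 probe sets were called among the 23 for the response in both genotypes, against 1.41% of all probe sets. In WT the call was 1421173_at of Irf4, against 1.04%, and in N-ras KO both Irf4 probe sets, against 2.34%. With the block within genotype, 5 of the 23 were called for both genotypes (2.74% of all), namely those of Irf4, 1448452_at of Irf8, Bhlhe40 and Foxp3. In WT 6 of 23 were called with that block (2.8% of all), namely both of Irf4, both of Irf8, Foxp3 and 1424035_at of Rora. In N-ras KO 3 were called (4.91% of all), both of Irf4 and 1456956_at of Ikzf2, and for the difference of the responses 4 (4.12% of all), 1421173_at of Irf4, 1416714_at of Irf8, 1424035_at of Rora and 1456956_at of Ikzf2. None of these had an adjusted p under 0.05.

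The same-numbered pairs gave the direction without a test. All 6 pairs were higher after stimulation on both Irf4 probe sets, 2 of 23, against 2.42% of all probe sets. All 3 WT pairs were higher on 12 of 23 member probe sets, against 14.5% of all, and by 1 probe set for each gene in 6 of 10 genes, Irf4, Irf8, Bhlhe40, Gata3, Foxp3 and Bcl6. All 3 N-ras KO pairs were higher on 4 of 23, against 13.8%. The WT groups did not overlap on 6 of 23, namely 1 probe set of Irf4, both of Irf8, Bhlhe40 and both of Bcl6, against 2.27% of all, and the N-ras KO groups on both Irf4 probe sets, against 2.72%. On 3 of 23, namely 2 of Rora and 1 of Ikzf2, the WT pairs all went one way and the N-ras KO pairs all the other, against 2.97% of all. The members were read on the same arrays and are not independent of each other. The median response over the 10 genes was 0.21 log2 in WT cells and 0.19 log2 in N-ras KO cells, beside 0.01 log2 over 18194 genes in each genotype.

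The study compared stimulated WT with stimulated N-ras KO cells, which here compares changes from separate baselines. At its thresholds 3 of 23 member probe sets were called, against 6.9% of all. Irf4 1421173_at was 0.97 log2 lower in WT, with a difference of -0.97 log2 (SE 0.40, adjusted p = 0.629 in limma). It was -0.60 log2 without the arrays labelled WT 1 and N-ras KO 3 and -0.52 log2 without the stimulated array labelled N-ras KO 3, and it was no longer called without the arrays numbered 3, at -0.51 log2 (SE 0.26). Irf8 1416714_at was 1.61 log2 higher in WT (SE 0.72, adjusted p = 0.653), 2.60 log2 without the arrays labelled WT 1 and N-ras KO 3, and 0.91 log2 without the stimulated array labelled N-ras KO 1. Rora 1424035_at was 1.20 log2 higher in WT (SE 0.36, adjusted p = 0.536). Foxp3 was 1.67 log2 higher in WT with an SE of 1.11 and was not called. It was called without the arrays labelled WT 1 and N-ras KO 3, at 2.09 log2 (SE 0.69, adjusted p = 0.615), and without the arrays numbered 3 it was 0.48 log2 (SE 0.76) and not called. For the difference of the responses, Rora 1424035_at was called at 1.12 log2 (SE 0.50, adjusted p = 0.999921), against 1.29% of all.

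The genes that these factors regulate, and their fellow factors, were read from 7 lists. No gene of any list passed the adjusted threshold. Among 33 measured other lineage and effector factors, 21 were higher in the response of both genotypes, with a median of 0.05 log2, and Eomes was called at the study's thresholds. Eomes, the relative of T-bet in cytotoxic cells, was 1.58 log2 higher (SE 0.58), but its pairs ran from -0.24 to 4.37 log2. Of 6 other interferon regulatory factors 5 were higher, with a median of 0.23 log2. Irf9, the DNA-binding partner of the STAT proteins in interferon signaling, was higher in all 6 pairs, by 0.53 log2 on average (SE 0.17), and none of the 6 was called for both genotypes.

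Of 12 type 1 helper genes 7 were higher, with a median of 0.04 log2 and 2 calls, the chemokine gene Ccl4 at 1.37 log2 (SE 0.35) and Tnf at 1.04 log2 (SE 0.41). Of 8 type 2 helper genes 6 were higher, with a median of 0.13 log2 and again 2 calls. Ccr8, a chemokine receptor of type 2 and regulatory T-cells, was higher in all 6 pairs, by 4.50, 2.23 and 2.75 log2 in WT and by 0.05, 1.00 and 1.88 log2 in N-ras KO. Il10, which encodes an inhibitory cytokine, was higher by 0.36 log2 in WT and by 2.45 log2 in N-ras KO (SE 0.88 each), with N-ras KO pairs of 1.53, 2.63 and 3.20 log2. Of 5 type 17 helper genes 4 were higher, with a median of 0.22 log2, and of 9 follicular helper genes 6, with a median of 0.17 log2. Neither list had a call for both genotypes. In WT cells 1 type 17 gene was called, Il17a at 0.82 log2 (-0.04 log2 in N-ras KO, SE 0.34 each), against 1.04% of all probe sets. These counts use 1 probe set for each gene, and the probe sets of the follicular gene Il21 disagreed. The counted one differed by 0.08, 0.23 and 2.54 log2 in WT and by -0.72, -1.17 and 0.32 log2 in N-ras KO. The other was higher in all 6 pairs, by 1.89, 0.86 and 2.25 log2 in WT and by 2.94, 0.98 and 3.55 log2 in N-ras KO.

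Of 15 regulatory T-cell genes 12 were higher in both genotypes together, with a median of 0.35 log2, the largest of the 7 lists. Il2ra, the alpha chain of the interleukin-2 receptor and marker of activation, was higher in all 6 pairs, by 1.92, 0.59 and 2.48 log2 in WT and by 0.90, 0.03 and 1.31 log2 in N-ras KO. The probe sets of Tnfrsf9, which encodes the costimulatory receptor 4-1BB, disagreed. On 1421481_at it was lower in all 6 pairs, by 0.36 log2 on average (SE 0.14), while on 1428034_a_at it was higher in all 6 pairs, by 0.73, 0.61 and 2.79 log2 in WT and by 1.61, 2.30 and 2.38 log2 in N-ras KO. On 1460469_at it was higher in 5 of 6 pairs. Il10, which this list shares with the type 2 genes, and Il2ra were the calls. Over all 18194 genes by 1 probe set each, 9615 were higher and the median was 0.01 log2.

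Of the markers of other cells, 13 T-cell markers had a median response of -0.06 log2 in both genotypes. Of 12 B-cell markers 10 were higher, with a median of 0.29 log2 (0.09 log2 for WT and 0.50 log2 for N-ras KO), and 2 were called at the study's thresholds, Fcer2a (1422122_at) at 2.19 log2 (SE 0.58) and Blnk at 1.54 log2 (SE 0.42). For the difference of the responses, the median was -1.18 log2 over 11 neutrophil markers and -0.70 log2 over 8 natural killer cell markers, with no gene called in either list. The mean of the neutrophil list ran from -1.57 on the unstimulated array labelled WT 2 to 1.33 on the stimulated array labelled N-ras KO 1. Their part in the member values was not tested.

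In thymocytes the 3 arrays were centred on their common median, and 1 array per genotype allows no test. Against N-ras KO, no member probe set differed by 1.5-fold, beside 2.64% of all probe sets. Against H-ras KO, Irf4 1421173_at did, beside 2.97%. It stood at 0.17 in WT, 0 in N-ras KO and -0.50 in H-ras KO, so that WT exceeded H-ras KO by 0.67 log2 or 1.60-fold, while 1421174_at differed by 0.22 log2. The N-ras KO array carried its label, with Nras 1.81, 2.46 and 2.38 log2 lower than in WT on its 3 probe sets.

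The H-ras KO array was the lowest of the 3 on 11 of 15 member probe sets, against 17.7% of all probe sets. Gata3, required for the CD4 lineage in the thymus, was higher on the WT array, by 0.34 log2 over N-ras KO and 0.55 log2 over H-ras KO. Irf8 1416714_at was 0.19 and 0.33 log2 higher in WT, and Bhlhe40 0.15 and 0.33 log2 higher. Rora 1424034_at, whose product acts in early T-cell and innate lymphoid development, lay on opposite sides, with 0.43 in N-ras KO, 0 in WT and -0.46 in H-ras KO. For Ikzf2 1421643_at, WT minus H-ras KO was 0.33 log2 and WT minus N-ras KO -0.08 log2. Prdm1 and Tbx21 were listed at 0 on all 3 arrays, as were 23.7% of all probe sets, and Foxp3 and Bcl6 differed by at most 0.08 log2 in either comparison.

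**Figure D4:**
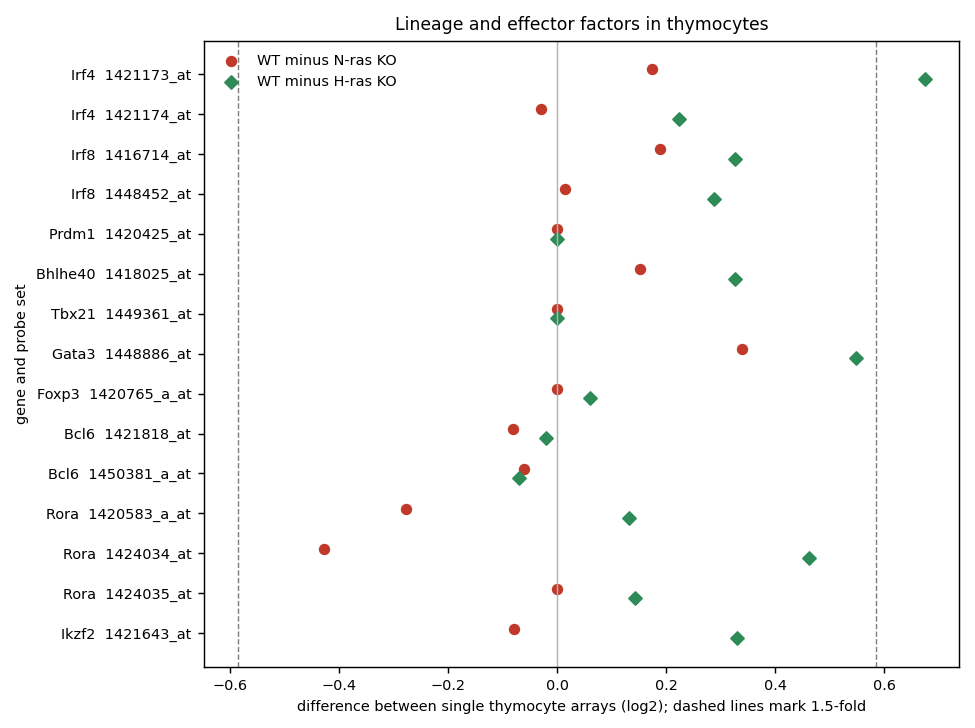
Difference in log2 expression (x axis) between the single WT thymocyte array and the N-ras KO array (red circles) or the H-ras KO array (green diamonds) on each of 15 member probe sets; dashed lines mark 1.5-fold. The green diamond of Irf4 1421173_at at 0.67 lies beyond the line, and most green diamonds lie to the right of the red circles.

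Among the genes of the 7 lists, Ctla4, Ccr8, Ifng and Nfil3 stood 1.5-fold or more above both KO arrays on the WT thymocyte array. The inhibitory receptor gene Ctla4 did so by 1.16 log2 over N-ras KO and 1.29 log2 over H-ras KO, Ccr8 by 1.17 and 0.67 log2, the type 1 cytokine gene Ifng by 0.80 and 1.04 log2, and Nfil3, a basic leucine zipper factor, by 0.99 and 0.60 log2. Bach2, a repressor of effector programs, stood at 0 in WT, 0.57 in N-ras KO and -1.21 in H-ras KO. Against H-ras KO alone, Lef1, Ikzf1, Irf1, Il4, Icos and Fasl reached 1.5-fold, with WT above by 0.59 to 0.80 log2. Of 11 neutrophil markers, WT exceeded each KO array by 1.5-fold or more on 8, with medians of 1.41 and 1.72 log2, and S100a8 stood at 1.45 in WT, 0 in N-ras KO and -0.46 in H-ras KO. The part of such cells in the thymocyte values was not tested.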

How the data were processed

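Expression in 12 arrays of CD4+ T-cells and 3 of thymocytes was read from the deposited tables, in which the authors give log2 values from RMA that they quantile normalized and set relative to the median of controls. Those tables hold no column left unused (0 columns). The paper names one array type, while the tables hold 45101 and 22690 probe sets. It says both that the cells of a sort were split between the conditions and that each condition used a different mouse, so p-values measure the spread between these arrays.

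Gene names came from GEO's platform annotation, with symbols updated through RefSeq: 34958 had 1 gene, 932 several and 9211 none on the CD4+ T-cell arrays, and 20393, 691 and 1606 on the thymocyte arrays. Where 1 probe set stands for a gene, it was taken by type and then by ID. Groups were compared with limma 3.58.1 in R 4.3.3 (group means over 12 arrays, two-sided, Benjamini-Hochberg over all probe sets, threshold 0.05), tested on simulated data, and thymocytes by fold alone (1.5-fold). Precision is limited by the number of arrays. The members and the 12 gene lists (7 of factors and helper genes, 5 of cell type markers) were chosen with earlier results of these data known. Named are all members, the 3 genes of each of the 7 lists with the smallest p as far as they bear on a result, and in thymocytes genes of those lists past 1.5-fold. Il21 is named because its probe sets disagreed. Promoters were searched in RefSeq windows of GRCm38.p6, where Bhlhe40 and Ikzf2 had no entry.

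Whether a shared number pairs arrays was checked first. Within WT their deviations correlated at 0.458, 0.447 and 0.738 and within N-ras KO at 0.361, 0.394 and 0.626, so a block by genotype and number was fitted beside the main test. Between genotypes same-numbered arrays correlated negatively (-0.234, -0.266 and -0.621 unstimulated, -0.117, -0.211 and -0.526 stimulated). The arrays numbered 3 thus deviated in opposite directions in WT and N-ras KO. Alternatives were the methods' t-test, a fit of 2 groups alone, both blocks, quantile normalization, median centring and array weights. Others left out arrays or removed probe sets that cross-hybridize.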

Additional observations from a re-analysis of the deposited data

Results flagged for a closer look

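On 3 member probe sets, all pairs of one genotype moved one way and all pairs of the other genotype the opposite way, which 2.97% of all probe sets did. On Rora 1424035_at the WT pairs were higher after stimulation and the N-ras KO pairs lower, with a difference of the responses of 1.12 log2 (SE 0.50). On Rora 1424034_at the WT pairs were lower and the N-ras KO pairs higher, with a difference of -0.66 log2 (SE 0.76), so the Rora probe sets oppose each other. On Ikzf2 1456956_at the WT pairs were lower and the N-ras KO pairs higher, with a difference of -0.92 log2 (SE 1.05), and 1 of the N-ras KO pairs differed by 0.02 log2. The difference was tested as an interaction in limma and had an adjusted p of 0.999921 on each of them. With the block within genotype, the unadjusted p was 0.00772, 0.0517 and 0.0231 and the adjusted p 0.961 on each. Without the arrays labelled WT 1 and N-ras KO 3 the 3 differences were 1.37, -0.50 and -0.85 log2.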

How the results depend on the processing

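No member passed the adjusted threshold under any alternative run, and of the 742 alternative values of the 34 member values at least 1 standard error from 0, 741 kept the sign. The exception was Bcl6 1450381_a_at for the stimulated comparison, which ranged from -0.062 to 0.89 log2 when 1 array was left out and was negative without the stimulated array labelled N-ras KO 1. Many of the 742 could not change sign, so their number does not measure stability. The t-test, the fit of 2 groups, both blocks and the removal of probe sets leave the member estimates as they are. A response within one genotype also stays the same when an array of the other is left out. Irf4 in both genotypes ranged from 1.77 to 2.16 log2 (adjusted p 0.136 to 0.999991), and the difference of the Irf8 responses from 1.10 to 2.60 log2. Over all probe sets, 0 passed by the methods' t-test after Benjamini-Hochberg adjustment. In limma 3 passed for both genotypes without the unstimulated array labelled N-ras KO 1, and 9 for the N-ras KO response and 13 for the stimulated comparison without the stimulated array labelled N-ras KO 3. The centring leaves no brightness to filter on.

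Counts of member genes at an unadjusted p of 0.05 and 1.5-fold moved more, from 1 for both genotypes, 1 in WT, 1 in N-ras KO, 1 for the difference of the responses and 3 for the stimulated comparison. With the replicate block within genotype they were 4, 4, 2 and 4 for the first 4 of these, and with the block by number 2 in WT. The methods' t-test and the fit of 2 groups each gave 4 in WT and 1 for the stimulated comparison. The share of all probe sets called also moved with the setting. In WT it was 1.04% in the main fit and 2.95% without the arrays numbered 3, and for the stimulated comparison 6.9% and 11.4%. Counts given here without that share are no result about the members. Array weights gave 3 in WT and 2 for the difference, and quantile normalization 0 for the difference. Without the arrays labelled WT 1 and N-ras KO 3 there were 2 in WT (1.65% of all probe sets called), 3 for the difference (2.3%), 4 for the stimulated comparison (Irf4, Irf8, Rora and Foxp3; 7.24%) and 2 genes with every pair higher (Irf4 and Gata3) in place of 1. Chosen after seeing the data, leaving out the arrays numbered 3 gave 3 in WT (2.95% of all) and 2 for the difference (3.67%), and the replicate block within genotype without the arrays labelled WT 1 and N-ras KO 3 gave 5 in WT and 4 for the difference. In thymocytes, a limit of 2-fold gave 0 members against H-ras KO in place of 1.

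Leaving out single arrays gave 1 to 3 member genes for both genotypes, the highest without the stimulated array labelled N-ras KO 1, 1 to 3 in WT, the highest without the same array, 1 in N-ras KO, 0 to 2 for the difference, the highest without the stimulated array labelled N-ras KO 3, and 1 to 3 for the stimulated comparison, the lowest without any 1 of the stimulated WT arrays. No share of all probe sets stands beside these counts, so they are no result about the members. The call of Rora 1424035_at for the difference was lost without any 1 of 9 arrays.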
